A study of Mus musculus with 6 samples.

Results

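Transcripts of 10 genes of the circadian clock and its PAR bZIP output were followed in mouse liver after vertical sleeve gastrectomy (VSG, removal of most of the stomach). The genes were chosen by name from the 55385 genes of the deposited table, with no threshold on their measured values, although earlier results of these data were known. They were the activators Arntl, Npas2 and Clock, the repressors Nr1d1, Nr1d2, Per2, Per3 and Ciart, and the PAR bZIP factors Dbp and Tef. All 10 had enough counts to be tested. Livers came from 3 sham-operated and 3 VSG-operated wild-type C57BL/6 males, and no transgene or deletion was named for either group. All animals were 6-8 weeks old at the start of a high-fat diet (HFD), ate it for 10 weeks, were operated on, and ate it for a further 12 weeks. Sham libraries carry replicate numbers 1 to 3 and VSG libraries 4 to 6. Neither the hour at which the livers were taken nor the feeding state of the mice then is given in the sources used here. The values below are therefore levels at unstated times and not phases or amplitudes of a rhythm.

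The circadian clock of a liver cell is a feedback loop of transcription. BMAL1, the protein of Arntl, pairs with CLOCK or NPAS2 and binds E-boxes, and so drives the genes of its own repressors, the PER, CRY and REV-ERB proteins. REV-ERB proteins, encoded by Nr1d1 and Nr1d2, compete with ROR activators at response elements (ROREs) in genes such as Arntl, Npas2 and Nfil3. The PAR bZIP factors DBP, TEF and HLF bind D-boxes and carry the rhythm to enzymes of drug and lipid metabolism, and NFIL3 represses at the same sites. In liver these transcripts cycle with the time of day, and those of Arntl and Npas2 peak at nearly the opposite time from those of Nr1d1, Dbp and the Per genes.

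The sequences below show where the letters of these elements stand near the start sites of the genes described here. They are from RefSeq (GRCm38.p6), in windows of 300 bases, 250 before and 50 after each transcript start. Of the 10 genes 9 were found, with 13 windows. Per2 had no window there, so its start was not searched. Both strands were searched for the E-box CACGTG, its variant CACGTT, the D-box forms TTATGTAA and TTACGTAA, and the RORE consensus. The capitals mark the matches, and each sequence is written 5′ to 3′ on the strand of the gene.
Ciart, chr3:95882255-95882356, minus strand: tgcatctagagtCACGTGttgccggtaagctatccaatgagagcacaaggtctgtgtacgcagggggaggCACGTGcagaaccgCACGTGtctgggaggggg
Per3, chr4:151044804-151044882, minus strand: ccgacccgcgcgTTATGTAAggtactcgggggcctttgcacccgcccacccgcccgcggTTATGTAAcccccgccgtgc
Tef, first start, chr15:81802534-81802563, plus strand: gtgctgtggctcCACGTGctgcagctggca
Tef, second start, chr15:81811264-81811293, plus strand: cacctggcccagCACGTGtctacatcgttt
Nr1d1, chr11:98775388-98775417, minus strand: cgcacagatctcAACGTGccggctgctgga
Arntl, second start, chr7:113207528-113207557, plus strand: ggaaggcagAAAGTAGGTCAgggacggagg

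Ciart held 3 E-boxes, whose first bases lay 116, 58 and 44 bases before the start. Per3 held the T form of the D-box at 205 and at 158 bases before its start. Tef held 1 E-box before each of its 2 starts, at 127 and 138 bases. Nr1d1 held the E-box variant on the opposite strand, from 28 to 23 bases before the start, where the capitals show its reverse complement. Arntl held 1 RORE from 27 to 37 bases after its second start. None of these matches overlapped another. No match was found in the windows of Npas2, Clock, Nr1d2 and Dbp, which says only that these letters are not there. Of all 32851 windows, 7.15% held the E-box, 4.68% the variant, 0.938% the T form and 0.119% the C form of the D-box, and 0.384% the RORE. A match describes the letters and is not evidence that a factor binds there.

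**Figure D1:**
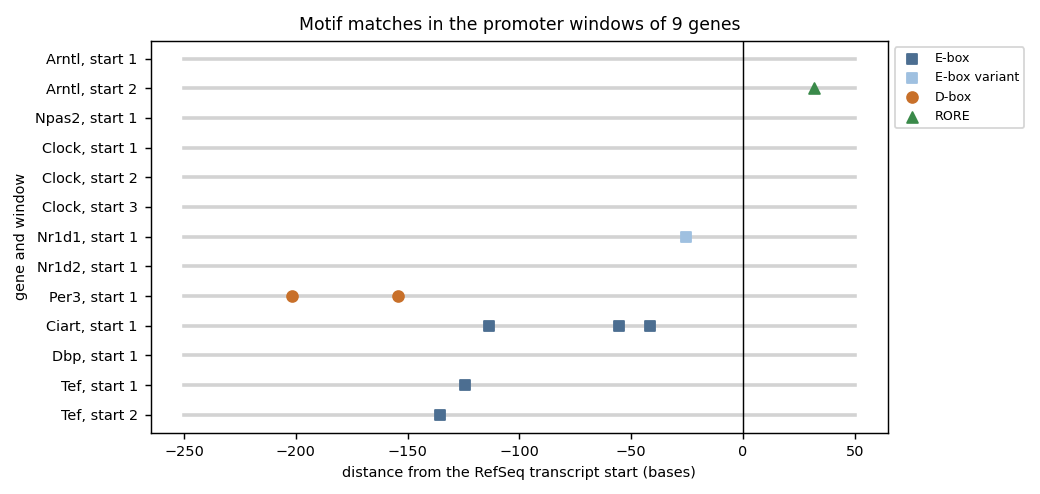
Motif matches in the promoter windows of 9 of the 10 genes. The x axis is the distance from the RefSeq transcript start in bases and each grey line is 1 window of 300 bases. The 3 E-boxes of Ciart and the 2 D-boxes of Per3 lie before the start, and the RORE of Arntl lies after its second start.

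Depth was even, with 22804397 to 24191778 counts per library. Levels are given as CPM (counts scaled to library size with TMM factors of 0.897 to 1.15) or, between genes, as FPKM (CPM per kilobase of exon). VSG replicate 5 stood apart from the other VSG libraries. The chi-square per degree of freedom over genes was 193 between VSG replicates 4 and 5 and 92.3 between 5 and 6, while every other pair within a group lay between 25.2 and 72.2. Summed CPM of 10 neutrophil markers was 1817 in VSG replicate 4, 149 in replicate 5 and 837 in replicate 6, and 2.65 to 14.7 in sham livers. The 7 hepatocyte markers (Alb, Apoa1, Ttr, Trf, Cps1, Asgr1 and Hnf4a) were abundant in every library, with sums of 75034 to 113446 CPM in sham and 87169 to 114912 CPM in VSG livers, and none of them passed the test after adjustment (1 higher and 1 lower at an unadjusted p under 0.05 and with DESeq2).

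Of the 10 genes, Clock alone passed an adjusted p of 0.05 over all genes, and its expression was higher after VSG. None was called lower by edgeR. At an unadjusted p under 0.05, 3 were higher (Arntl, Clock and Nr1d1) and 2 lower (Per2 and Ciart), against 16.9% and 17% of all genes and 33.9% in either direction. DESeq2 called these same 5 genes after adjustment, against 18.7% of the 17381 genes it adjusted (8.73% higher and 9.98% lower). By edgeR, 14.7% of all 14454 genes tested were called, 6.79% higher and 7.87% lower. The groups did not overlap for Arntl, Clock and Nr1d1, which were higher in every VSG library, or for Per2 and Ciart, which were lower. Such separation was found for 39.7% of all tested genes, 19.8% in each direction. The log2 fold change was negative for 6 of the 10 genes, against 47.6% of all genes. Its median over the 10 was -0.24, against 0.03 over all genes. In whole liver, a change in the share of a cell type and a change in RNA per cell cannot be told apart.

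**Figure D2:**
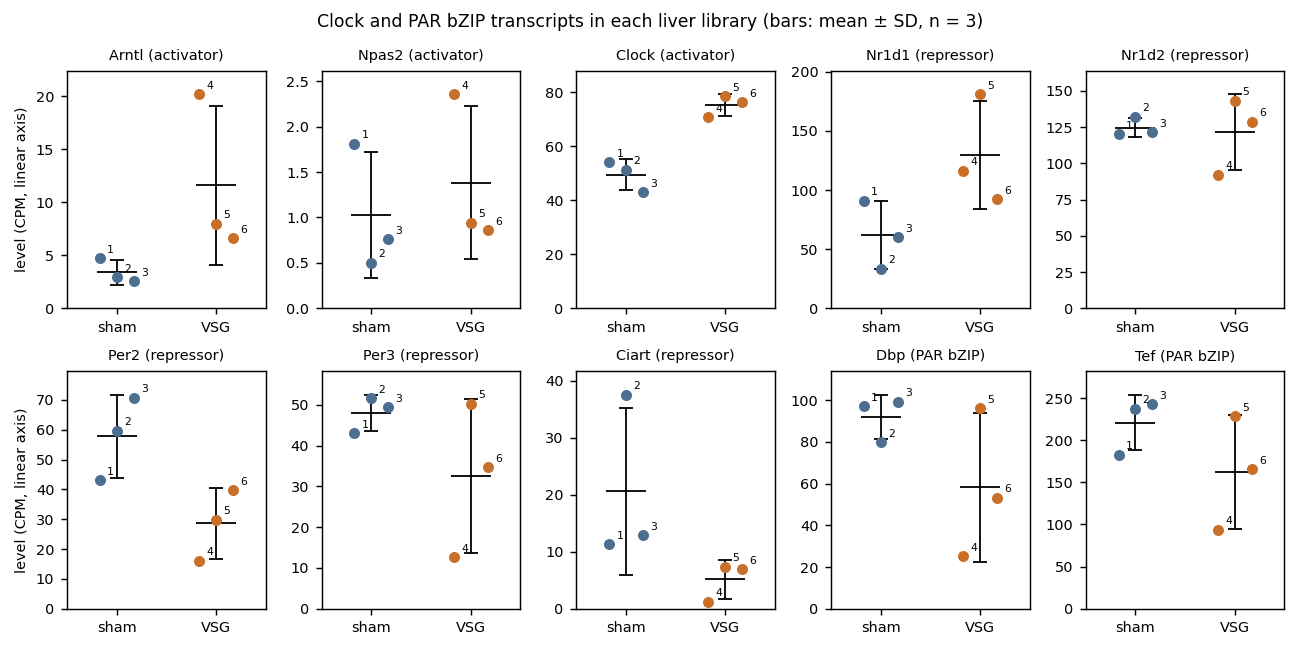
Levels of the 10 transcripts in each library, in CPM on linear axes that start at 0. Points are libraries with their replicate numbers, and bars are the mean ± SD (n = 3 per group). Clock has narrow groups that lie apart, while VSG replicate 4 is the lowest VSG library in 7 panels and the highest for Arntl and Npas2.

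Clock encodes a partner of BMAL1 (chromosome 5, 76209868 to 76304792, minus strand, GRCm38). Its level was 54.0, 51.3 and 43.0 CPM in the sham libraries and 70.7, 78.4 and 76.3 CPM in the VSG libraries. Every VSG library stood above every sham library, and the spread within each group was narrow. Its level rose from 49.4 ± 5.76 to 75.1 ± 4.004 CPM (SD, n = 3), a 1.52-fold difference (log2 fold change 0.60 with an SE of 0.113, adjusted p 0.0216 by edgeR). The call was lost when libraries were scaled by total counts (log2 fold change 0.46, adjusted p 0.0740). It was also lost when sham replicate 2 (0.63, 0.0585), sham replicate 3 (0.51, 0.0907) or VSG replicate 6 (0.59, 0.0839) was left out. Without VSG replicate 4 the log2 fold change was 0.65, and it was 0.55 without VSG replicate 5 (adjusted p 0.0379 and 0.0365).

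Arntl encodes BMAL1, the partner that CLOCK and NPAS2 share (chromosome 7, 113207465 to 113314126, plus strand). Counts were 128, 65 and 67 in sham and 446, 187 and 139 in VSG libraries, or 4.73, 2.97 and 2.55 CPM against 20.2, 7.99 and 6.63 CPM. All VSG libraries lay above the sham libraries, with VSG replicate 4 far above the other two. The means were 3.41 ± 1.16 and 11.6 ± 7.46 CPM, and the log2 fold change of 1.76 (SE 0.477) had an adjusted p of 0.0526, just short of a call. It was 1.10 without VSG replicate 4 (0.0744) and 1.95 without VSG replicate 5 (0.0434). DESeq2 gave an adjusted p of 0.00261 and a fit without a low-count filter 0.0206.

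Npas2 encodes the other partner of BMAL1 (chromosome 1, 39193731 to 39363236, plus strand) and had 11 to 52 counts per library. Its level was 1.81, 0.503 and 0.760 in sham and 2.35, 0.940 and 0.859 CPM in VSG libraries. The groups overlapped, with sham replicate 1 and VSG replicate 4 above the rest. The log2 fold change was 0.42 (SE 0.596, adjusted p 0.644), and it was -0.20 without VSG replicate 4.

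Nr1d1 encodes REV-ERB alpha, the repressor that acts on Arntl through ROREs (chromosome 11, 98767932 to 98775333, minus strand). Its level was 91.1, 33.7 and 60.1 in sham and 116, 181 and 92.1 CPM in VSG libraries. The groups did not overlap, but the highest sham library and the lowest VSG library were only about 1 CPM apart. The means were 61.6 ± 28.7 and 129.7 ± 45.8 CPM (log2 fold change 1.07 with an SE of 0.394, adjusted p 0.110). DESeq2 put it past the threshold (adjusted p 0.0432). Leaving out VSG replicate 4 gave a log2 fold change of 1.15, and leaving out VSG replicate 5 gave 0.73. Its exons share 263 of 3077 bases with those of Thra on the opposite strand, which had 1941 counts in all libraries against 13511 for Nr1d1, and the strand setting of the counting is not given in the sources used here.

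Nr1d2 encodes REV-ERB beta, its close relative (chromosome 14, 18204054 to 18239127, minus strand). It stood at 119.98, 132 and 121 in sham and 92.3, 143 and 129 CPM in VSG libraries. The VSG libraries lay on both sides of the sham libraries. The log2 fold change was -0.04 (SE 0.171, adjusted p 0.893), and it was 0.13 without VSG replicate 4 and -0.19 without VSG replicate 5.

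Per2 encodes a PERIOD protein, which joins the CRY proteins to inhibit CLOCK and BMAL1 (chromosome 1, 91415982 to 91459324, minus strand). Its level was 43.1, 59.7 and 70.7 in sham and 16.1, 29.9 and 39.8 CPM in VSG libraries. Every VSG library was below every sham library. The means were 57.9 ± 13.9 and 28.6 ± 11.9 CPM (log2 fold change -1.02 with an SE of 0.336, adjusted p 0.0870), and the difference was not called by edgeR. It was called with DESeq2 (0.0273), with total counts (0.0443) and without a low-count filter (0.0450). Without VSG replicate 4 the log2 fold change was -0.73.

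Per3 encodes another PERIOD protein (chromosome 4, 151003652 to 151044665, minus strand), whose D-boxes are printed above. It was at 43.0, 51.6 and 49.5 in sham and 12.6, 50.3 and 34.8 CPM in VSG libraries. VSG replicate 5 lay within the sham range, while replicate 4 was far below it. The log2 fold change of -0.56 (SE 0.435, adjusted p 0.393) was -0.17 without VSG replicate 4 and -1.04 without VSG replicate 5.

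Ciart encodes a repressor of CLOCK and BMAL1 that is itself driven through E-boxes (chromosome 3, 95878503 to 95882251, minus strand). Counts were 306, 822 and 340 in sham and 27, 172 and 145 in VSG libraries, or 11.3, 37.6 and 12.9 CPM against 1.22, 7.35 and 6.92 CPM. All VSG libraries were below all sham libraries, and 1 library in each group stood far from the other two. The means were 20.6 ± 14.7 and 5.16 ± 3.42 CPM (log2 fold change -1.99 with an SE of 0.717, adjusted p 0.105). DESeq2 put it past the threshold (0.0180). It moved to -1.23 on the log2 scale without sham replicate 2 and -1.52 without VSG replicate 4.

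Dbp encodes the founding PAR bZIP factor, a D-box activator and a classic output of the clock (chromosome 7, 45705088 to 45710203, plus strand). Its level was 97.1, 79.99 and 99.2 in sham and 25.1, 96.2 and 53.3 CPM in VSG libraries. The sham libraries were close together, whereas VSG replicate 5 reached the sham level and replicate 4 did not. The means were 92.1 ± 10.5 and 58.2 ± 35.8 CPM (log2 fold change -0.66 with an SE of 0.431, adjusted p 0.314). Without VSG replicate 5 the log2 fold change was -1.25 and passed the threshold (adjusted p 0.0463), and without VSG replicate 4 it was -0.30. Of its 2993 exon bases, 539 overlap exons of Sphk2 on the other strand, a gene with 5045 counts in all against 10915 for Dbp.

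Tef encodes a PAR bZIP factor that binds the same D-boxes as DBP (chromosome 15, 81802421 to 81826863, plus strand). It was at 183, 237 and 243 in sham and 93.7, 228 and 165 CPM in VSG libraries. The order of the VSG libraries was that of Dbp, and VSG replicate 5 again lay within the sham range. The means were 221 ± 33.0 and 163 ± 67.5 CPM (log2 fold change -0.44 with an SE of 0.313, adjusted p 0.350). It was -0.16 on the log2 scale without VSG replicate 4 and -0.79 without VSG replicate 5 (adjusted p 0.0952).

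Per length, the PAR bZIP and REV-ERB transcripts were the most abundant of the 10. In sham livers Dbp was at 30.8 ± 3.52 FPKM, Tef at 28.1 ± 4.20, Nr1d2 at 23.0 ± 1.24 and Nr1d1 at 20.02 ± 9.33 FPKM. Per2 (9.88 ± 2.37 FPKM), Ciart (9.11 ± 6.51), Per3 (4.997 ± 0.466) and Clock (3.60 ± 0.419) followed. Arntl (0.454 ± 0.154 FPKM) and Npas2 (0.214 ± 0.145) were lowest. The mean ± SD of neighbours in this order overlapped, except between Per3 and Clock and between Clock and Arntl. In VSG livers Nr1d1 came first at 42.1 ± 14.9 FPKM, ahead of Nr1d2 (22.4 ± 4.84), Tef (20.7 ± 8.57) and Dbp (19.4 ± 12.0). Clock (5.47 ± 0.292 FPKM), Per2 (4.89 ± 2.03), Per3 (3.39 ± 1.97), Ciart (2.28 ± 1.51) and Arntl (1.54 ± 0.992) came next, and Npas2 was last at 0.289 ± 0.175 FPKM. Here neighbours overlapped except between Dbp and Clock and between Arntl and Npas2.

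Of the 10 clock transcripts, 7 varied more between VSG livers than between sham livers. The SD of log2 CPM within a group had a median over the 10 genes of 0.29 in sham and 0.71 in VSG livers, against 0.18 and 0.22 over all tested genes. In sham and VSG livers it was 0.95 and 1.42 for Ciart, 0.14 and 1.03 for Per3, 0.17 and 0.97 for Dbp, and 0.45 and 0.85 for Arntl. It was lower after VSG for Clock (0.17 and 0.08), Nr1d1 (0.72 and 0.49) and Npas2 (0.86 and 0.76). VSG replicate 4 was the lowest VSG library for 7 genes (Clock, Nr1d2, Per2, Per3, Ciart, Dbp and Tef) and the highest for Arntl and Npas2. VSG replicate 5 was the highest for 7 genes (Clock, Nr1d1, Nr1d2, Per3, Ciart, Dbp and Tef). Among sham livers no library held more than 5 of the lowest or 4 of the highest values.

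**Figure D3:**
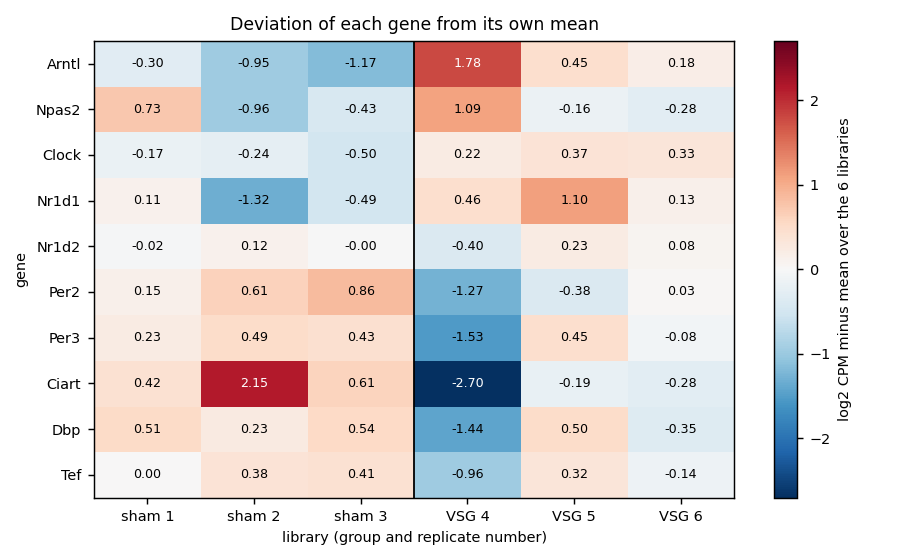
Deviation of log2 CPM from the mean of each gene over the 6 libraries, by gene and library, with red above and blue below that mean. The column of VSG replicate 4 runs from 1.78 for Arntl to -2.70 for Ciart, and that of sham replicate 2 from 2.15 for Ciart to -1.32 for Nr1d1.

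VSG replicate 4 was also the library with the most RNA of inflammatory cells and of acute phase genes. All 10 neutrophil markers passed the test as higher after VSG, with the sums given above. Macrophage markers summed to 1533, 506 and 998 CPM in VSG replicates 4, 5 and 6 and to 211 to 419 CPM in sham livers, and 4 of 7 passed as higher (5 at an unadjusted p under 0.05 and 5 with DESeq2). The 8 acute phase genes were all higher, at 73154, 27341 and 59549 CPM against 7299 to 8097 CPM. Stellate cell markers summed to 128, 285 and 170 CPM against 315 to 560 CPM, with 1 of 6 (Reln) called lower by edgeR. At an unadjusted p under 0.05, 5 of the 6 stellate cell markers were lower, DESeq2 called 4 lower, and 4 were lower in every VSG library than in any sham library (17%, 9.98% and 19.8% of all genes). Of 4 bile duct markers, Sox9 was called higher, and it made up most of the sums of 49.3, 20.4 and 24.1 CPM (47.1, 17.9 and 21.8 CPM) against 7.72 to 18.7 CPM in sham livers. Krt19, Krt7 and Epcam had negative log2 fold changes (-0.76, -0.84 and -1.20) and were not called. No lymphocyte marker of 7 and no endothelial marker of 5 passed, with 0 at an unadjusted p under 0.05 and 0 with DESeq2, and the groups overlapped in both sums. The neutrophil, macrophage and acute phase sums fell in the order of VSG replicates 4, 6 and 5. This was the reverse of their order for Clock, Nr1d2, Per3, Ciart, Dbp and Tef, a match seen only after the values were examined. Arntl, Npas2, Nr1d1 and Per2 did not have this reversed order. Between the groups, Clock was higher after VSG, as these sums were. The part of these cells in the clock values was not tested.

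Ratios of 2 transcripts within a library do not depend on how libraries are scaled. They were chosen after the values were seen and are given without a test, as log2 ratios of counts. Arntl over Dbp was -4.36, -4.75 and -5.28 in sham and -0.32, -3.59 and -3.01 in VSG libraries. This ratio was higher in every VSG library than in any sham library. Nr1d1 over Dbp was -0.09, -1.25 and -0.72 in sham and 2.21, 0.91 and 0.79 in VSG libraries, again without overlap. Between relatives the groups overlapped. Nr1d1 over Nr1d2 had means of -1.13 ± 0.793 and 0.06 ± 0.471, Per2 over Per3 of 0.24 ± 0.257 and -0.07 ± 0.595, and Dbp over Tef of -1.26 ± 0.329 and -1.59 ± 0.328. Clock over Npas2 was 5.80 ± 0.888 and 5.92 ± 0.878.

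The other genes of the clock were read from a list of 18, of which 17 were tested. Rorb, a ROR receptor found mainly outside the liver, was at or under 0.382 CPM in every library and was not tested. None of the 17 was called higher by edgeR and 1 was called lower, against 6.79% and 7.87% of all genes. At an unadjusted p under 0.05 the counts were 3 and 3 (16.9% and 17% of all genes), and with DESeq2 they were 2 and 2 (8.73% and 9.98%). Their median log2 fold change was -0.13. Usp2, which encodes a deubiquitinase with a strong daily rhythm, fell from 72.6 ± 25.8 to 14.4 ± 8.60 CPM (log2 fold change -2.33 with an SE of 0.550, adjusted p 0.0370). It was at 43.5, 92.8 and 81.3 in sham and 4.66, 20.9 and 17.6 CPM in VSG libraries, with VSG replicate 4 again lowest. Usp2 lost its call when sham replicate 2, sham replicate 3 or VSG replicate 6 was left out (up to 0.129), while its log2 fold change in these fits was -2.12, -2.25 and -2.50.

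The 16 genes called neither way included the other Period gene and both Cryptochromes. Per1 had a log2 fold change of -1.07 (adjusted p 0.127), Cry1 of -0.20 (0.741) and Cry2 of -0.30 (0.403). Without VSG replicate 4 the log2 fold change of Cry2 was -0.091, and it was -0.61 without VSG replicate 5 (adjusted p 0.0609). That of Cry1 was -0.57 without VSG replicate 4 and -0.0028 without VSG replicate 5. Nfil3, the repressor at D-boxes, was at 7.87, 14.9 and 8.70 in sham and 27.8, 19.8 and 17.7 CPM in VSG libraries. The groups did not overlap, and its log2 fold change of 1.06 (SE 0.288) had an adjusted p of 0.0533. It passed under 5 of 13 alternatives, among them DESeq2 (0.00897). Hlf, the PAR bZIP factor beside Dbp and Tef, was at 83.6, 163 and 141 in sham and 38.3, 90.8 and 81.8 CPM in VSG libraries, with a small overlap (log2 fold change -0.88 with an SE of 0.371, adjusted p 0.149). Leaving out VSG replicate 4 moved the log2 fold change of Hlf to -0.58. The log2 ratio of Nfil3 to Dbp was -3.63, -2.42 and -3.51 in sham and 0.15, -2.28 and -1.59 in VSG libraries, and that of Nfil3 to Tef had means of -4.44 ± 0.415 and -2.83 ± 0.950. Neither ratio overlapped between the groups. Rora, which encodes ROR alpha, had a log2 fold change of 0.38 (SE 0.110, adjusted p 0.0621).

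**Figure D4:**
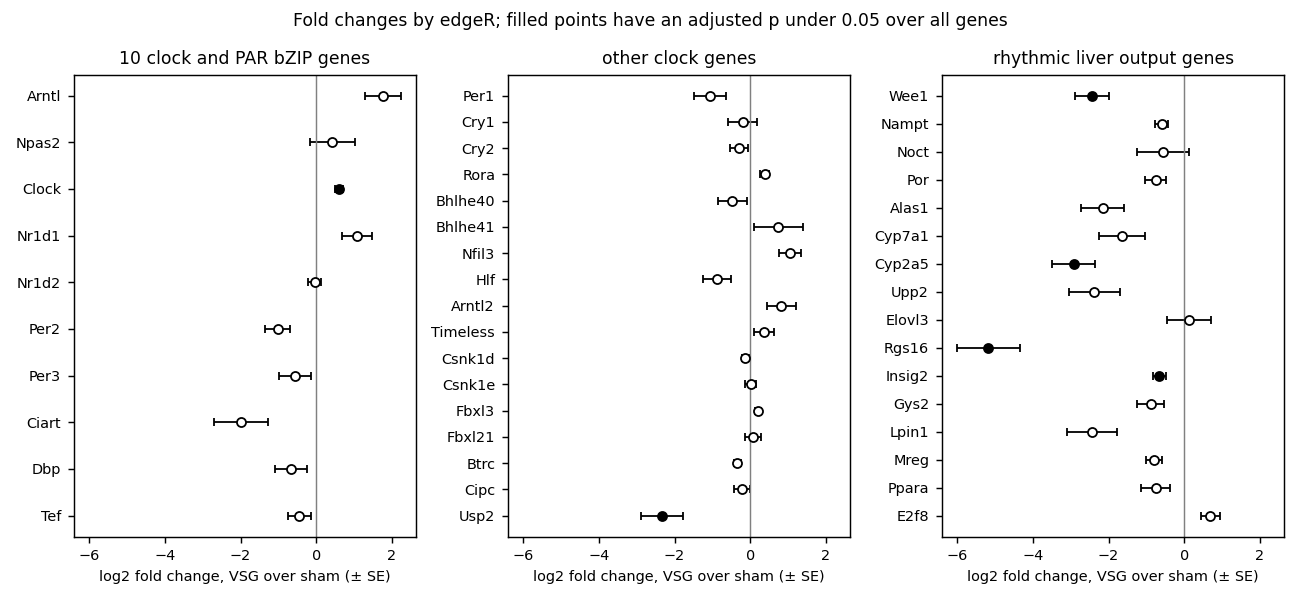
Log2 fold changes of VSG over sham livers with their SE, for the 10 genes, 17 other clock genes and 16 liver genes with known daily rhythms. Filled points have an adjusted p under 0.05 over all genes tested. Clock is the only filled point to the right of 0, and the filled points of the other panels, 1 and 4 in number, lie to the left.

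Liver genes that are known to cycle downstream of the clock or of feeding were read from a list of 16, all tested. The feeding state at collection is not given, and its part in these values was not tested. None was called higher by edgeR and 4 were called lower, with 14 negative log2 fold changes and a median of -0.84. At an unadjusted p under 0.05, 1 was higher and 12 were lower, against 16.9% and 17% of all genes, and DESeq2 called 0 higher and 10 lower, against 8.73% and 9.98%. Over all genes 7.87% were called lower and 47.6% had a negative log2 fold change. In 11 of the 16 every VSG library was below every sham library, against 19.8% of all genes. Rgs16, which encodes a regulator of G protein signalling, fell from 242 ± 168 to 6.65 ± 5.72 CPM (log2 fold change -5.18 with an SE of 0.823, adjusted p 0.0155). Its libraries were at 96.8, 426 and 203 CPM in sham and 3.08, 13.3 and 3.63 CPM after VSG. The log2 fold change of Rgs16 was -6.19 without VSG replicate 5 and -4.49 without sham replicate 2. Wee1, which encodes a kinase that holds back mitosis and is driven through E-boxes, fell from 33.1 ± 3.61 to 6.05 ± 3.87 CPM (log2 fold change -2.45 with an SE of 0.447, adjusted p 0.0207). Its libraries were at 29.0, 34.9 and 35.5 CPM in sham and 2.49, 10.2 and 5.49 CPM after VSG, and the VSG libraries stood in the order seen for Dbp. Without VSG replicate 5 the log2 fold change of Wee1 was -3.07. Cyp2a5, a cytochrome P450 gene with D-box control, fell from 381 ± 156 to 50.1 ± 32.2 CPM (log2 fold change -2.93 with an SE of 0.574, adjusted p 0.0241). It belongs to a family of near-identical genes, so its counts are uncertain. Insig2, which restrains the processing of SREBP proteins, fell from 243 ± 12.8 to 153 ± 31.1 CPM (log2 fold change -0.66 with an SE of 0.169, adjusted p 0.0450). Among the 4 genes Insig2 was the only one with its lowest VSG level in replicate 5 (181, 119.6 and 159 CPM). All 4 lost their calls without sham replicate 3 or without VSG replicate 6, where 1.07% and 1.42% of all genes were called. The log2 fold changes in these fits stayed close to those with all libraries, at -5.30 and -4.89 for Rgs16, -2.40 and -2.38 for Wee1, and -0.70 and -0.69 for Insig2. Leaving out sham replicate 2 also ended the calls of Wee1 (0.0559), Cyp2a5 (0.0623) and Insig2 (0.0983), and that of Insig2 was lost with limma-voom (0.0513) and without sham replicate 1 (0.1001) too. In the fit without sham replicate 2 the 2 called genes were 1 lower and 1 higher, the latter E2f8 (log2 fold change 0.98, adjusted p 0.0435).

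The genes whose levels moved most like those of Arntl, Nr1d1 and Dbp were sought among 9956 tested genes with a mean of at least 5 CPM. Likeness was the root mean square difference of log2 CPM over the 6 libraries, after each gene was centred on its own mean, and it is a description without a test. Because the genes were picked on these same libraries, the direction of their difference between the groups follows from the choice, and no test of it is given. The closest to Arntl were Tnfaip2 (0.29), Pde4b (0.30) and Epb41l3 (0.32). Tnfaip2 was highest in VSG replicate 4, as Arntl was, at 119 CPM against 44.2 and 47.7 CPM in replicates 5 and 6. Id2 (0.12), Steap2 (0.20) and Osgin1 (0.22) were closest to Nr1d1, and Id2 averaged 102 ± 40.6 in sham and 241 ± 73.7 CPM in VSG livers. Closest to Dbp were Aox3 (0.18), Nr3c2 (0.19) and Gm37729 (0.20).

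The calls among the 10 genes depended on the tool and the libraries. DESeq2 called 5 of them, against 18.7% of the 17381 genes for which it gave an adjusted p. Arntl, Clock and Nr1d1 were higher (8.73% of all genes) and Per2 and Ciart lower (9.98%). Clock alone was called with limma-voom, limma on log2(FPKM + 1) and edgeR with RLE size factors, which called 12.9%, 12.9% and 14.3% of all genes, and with at least 10 counts required in every library (14.8%). With total counts Per2 alone was called (13.8%), and without a low-count filter Arntl, Clock and Per2 were (8.38%). Clock was the 1 gene called without sham replicate 1 (8.19%) or without VSG replicate 4 (7.32%). Arntl, Clock and Dbp were called without VSG replicate 5 (18.4%). None of the 10 was called in the fits that left out sham replicate 2 (5.34%), sham replicate 3 (1.07%) and VSG replicate 6 (1.42%). Nr1d2, Npas2, Per3 and Tef were called under none of the 13 alternatives.

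**Figure D5:**
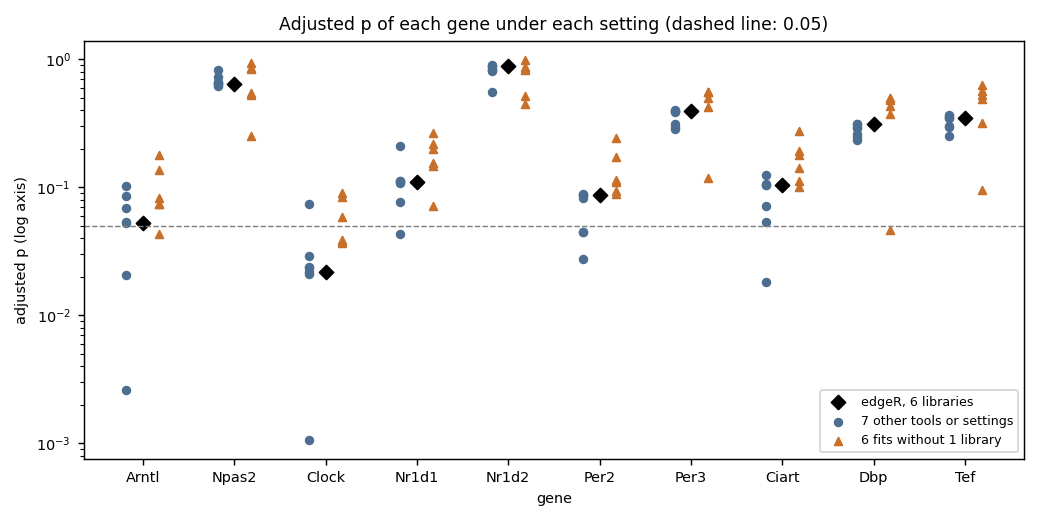
Adjusted p of each of the 10 genes, on a log axis, in the edgeR fit of all 6 libraries (diamonds), in 7 fits with other tools or settings (circles) and in 6 fits that each left out 1 library (triangles). The dashed line is 0.05. Clock has points on both sides of the line, from 0.00107 to 0.0907, and those of Nr1d2, Npas2, Per3 and Tef all lie above it.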

How the data were processed

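Poly(A)-selected liver RNA of 3 sham and 3 VSG mice (about 40 mg of tissue each) was sequenced from strand-specific libraries. The authors deposited unnormalised read counts for each gene. Per the labels they used FastQC 0.10.1, STAR 2.6.0, featureCounts 2.0.3 and mm10. The annotation release, strand option and treatment of multi-mapping reads are not given in the sources used here. Symbols came from GENCODE M21 (54487 of 55385 identifiers with version, 657 without, 241 unmatched).

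Tests were run in R 4.3.3 with edgeR 4.0.16 (filterByExpr, minimum count 10 and total 15, TMM, glmQLFTest), with Benjamini-Hochberg adjustment over all 14454 genes tested. Called means an adjusted p under 0.05. SE is the log2 fold change divided by the square root of F. The scripts were tested on simulated data. P-values measure the spread between these libraries, 1 animal each, and libraries of a group differed beyond counting noise (chi-square per degree of freedom at least 25.2). With 3 against 3 an exact two-sided permutation test cannot go below 0.1, so none was used.

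The 10 genes, the lists and the tests were chosen with earlier results of these data known. Named genes are the 10, listed genes that passed, untested ones, and the 3 nearest to Arntl, Nr1d1 and Dbp. Others (Per1, Cry1, Cry2, Nfil3, Hlf, Rora and E2f8, and genes of the context lists) were named after their values were seen. So were Csnk1e, Fbxl21, Cipc, Noct and Elovl3, named because their direction turned under some alternatives. The 13 alternatives were DESeq2 1.42.0, limma 3.58.1 (voom, or log2(FPKM + 1)), RLE factors, total counts, 2 filters and leaving out each library. Of the clock list, 1 gene is not reported here. Motif windows were from RefSeq (GRCm38.p6).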

Additional observations from a re-analysis of the deposited data

How the results depend on the processing

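Depth limits Npas2 most, with 11 to 52 counts per library, and the other 9 of the 10 genes had at least 27. No paired analysis was possible because sham replicates are numbered 1 to 3 and VSG replicates 4 to 6, so the groups share no number. With total counts the median log2 fold change of the genes tested under every setting shifted by -0.14, and 486 genes were called higher and 1512 lower, against 981 and 1137.

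With DESeq2, 3252 genes (18.7%) were called against 2118 (14.7%), with 5 of the 10 genes against 1. It called 4 other clock genes against 1 and 10 rhythmic output genes against 4. Without a low-count filter (8.38% of all genes called) the counts were 3 of the 10 genes, 2 other clock genes and 9 output genes. With total counts (13.8%) 2 other clock genes and 9 output genes were called, and 1 of the 10 genes, Per2 as lower in place of Clock. With limma-voom (12.9%) 2 other clock genes were called. Leaving out 1 library gave from 159 genes (1.07%, without sham replicate 3) to 2732 (18.4%, without VSG replicate 5). The counts then ran from 0 to 3 of the 10 genes, from 0 to 2 other clock genes and from 0 to 6 output genes. Each of these fits holds fewer libraries, and the cause of each change was not tested.

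Some directions turned, each of a gene that was not called. Leaving out 1 library moved the log2 fold change of Npas2 between -0.20 (without VSG replicate 4) and 1.11, and that of Nr1d2 between -0.19 and 0.13 (without VSG replicate 4). The range was -0.57 to 0.15 for Cry1, -0.090 to 0.15 for Csnk1e, -0.038 to 0.19 for Fbxl21, -0.41 to 0.0039 for Cipc, -1.50 to 0.10 for Noct and -0.20 to 0.91 for Elovl3. Csnk1e was also at -0.0093 with DESeq2, -0.12 with total counts and -0.021 without a low-count filter, and Fbxl21 at -0.055 with total counts. The other 8 of the 10 genes kept their direction under all 13 alternatives.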

Other observations

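Temperature responsive genes, which can follow body temperature rhythms in liver, were read from a list of 8, of which 7 were tested and none was called by edgeR. At an unadjusted p under 0.05, 1 was higher (Rbm3), and DESeq2 called 1 higher. Rbm3, a cold-inducible RNA-binding protein, averaged 14.5 in sham and 20.5 CPM in VSG livers without overlap (log2 fold change 0.50, SE 0.134, adjusted p 0.0512), and Cirbp had a log2 fold change of 0.22 (adjusted p 0.400). Hspa1a was too low to be tested.

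Of 9 glucocorticoid responsive genes, 3 were called higher by edgeR (Mt1, Mt2 and Lcn2), against 6.79% of all genes, and Lcn2 is on the acute phase list too. Their log2 fold changes were 2.18, 2.68 and 4.78. Sgk1 (-1.19, adjusted p 0.0654) and Dusp1 (-1.92, adjusted p 0.0593) were lower in every VSG library, as were 19.8% of all genes, and did not pass the threshold with edgeR. DESeq2 called 3 genes of the list higher and 2 lower, against 8.73% and 9.98% of all genes. Over the list 6 log2 fold changes were negative, and the median was -0.12. Fkbp5 (-0.01), Tsc22d3 (-0.84), Zbtb16 (-1.14) and Tat (-0.12) overlapped between the groups.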
